A study of Arabidopsis thaliana with 6 samples.

Results

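The genes described here are AT3G27200, AT4G27435, AT1G79620 and AT5G26330, whose transcripts are known to accumulate together with those of secondary wall genes, and C3H14 (AT1G66810), which encodes a CCCH zinc finger protein. They were chosen by name, with their earlier values on these arrays known, and each was read through its brightest probe set. They are 5 of the 13355 genes that could be named on the array. Each has 1 probe set, so no choice between probe sets arose. All 5 were chosen with all 6 arrays in view, so their values are a description and carry no test.

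The samples were cultured cells of Arabidopsis thaliana, ecotype Ler, under a series title on trans-differentiation, with 1 sample and 1 ATH1 array (a 1-colour oligonucleotide array) for each of 6 conditions. In high differentiating liquid medium, days 2, 5 and 9 were sampled. That medium held 0.2 mg/l auxins (2,4-D, NAA and IAA) and 1 mg/l of the cytokinin benzyladenine. In low differentiating liquid medium, where 2,4-D was at 0.5 mg/l and kinetin at 1.5 µg/l, days 5 and 9 were sampled. Both liquid media also held 0.2% sucrose and 4% mannitol and were shaken at 105 rpm. The labels do not say if the auxin concentration is that of each or of all 3 together, how the liquid cultures were lit, or which cell type formed. The day 0 sample was the starting callus, which came from leaves of seedlings 14 to 17 days old, kept 2 weeks in darkness at 22 °C on medium with 2.0% glucose, 0.5 mg/l 2,4-D and 0.05 mg/l kinetin. None of the 6 samples was from low medium at day 2, so the day 2 values of high medium have no low medium counterpart. With 1 array per condition no difference has a replicate check, and none has a p-value.

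Secondary walls are laid down inside the primary wall once a cell has stopped growing, and in plants they are best known from the water-conducting cells of the xylem and from fibres. They hold cellulose made by a separate set of synthases, the hemicellulose xylan, and lignin, and their genes are switched on together by a cascade of NAC and MYB factors. C3H14 acts below MYB46 in that cascade and can itself activate wall genes. AT3G27200 and AT5G26330 belong to the plastocyanin-like proteins, small copper-binding proteins of the cell surface. AT1G79620 encodes a receptor-like kinase with leucine-rich repeats, and AT4G27435 a membrane protein of the DUF1218 family, whose biochemical function is not settled. These roles are background; the annotation used here gives only the locus for these genes.

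Whether xylem cells had formed could not be read from markers, since none of 7 xylem, 5 cambium and 3 endodermis markers has a probe set that could be named here. Intensities are on the linear scale of the deposited table, and values below 24.7, the floor placed at the 40th percentile, were treated as having no order. From 59.3% to 61.1% of probe sets lay above that floor on each array. Scan background was 105.48 for low medium at day 5 and between 69.04 and 82.04 elsewhere.

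C3H14, the regulator among the genes, read 29.5 in callus, then 114.6 at day 2, 50.1 at day 5 and 36.5 at day 9 of high medium. In low medium it read 29.3 at day 5 and 26.8 at day 9. Its day 2 value was 2.29 times the next highest, and the low medium values lay 0.2 and 2.7 intensity units below callus, little above the floor. The day 2 value was 3.88 times that of callus, a log2 ratio of 1.96.

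The plastocyanin-like gene AT3G27200 had the widest range of the 5 after the floor, 9.50-fold between its highest and lowest array. Those of AT5G26330 and AT1G79620, at least 8.23-fold and at least 6.26-fold, are bounds, so they may be wider. For AT3G27200, callus read 156.7, and high medium 641.0 at day 2, 371.4 at day 5 and 201.3 at day 9. The low medium values were 84.5 at day 5 and 67.5 at day 9. Every high medium array was thus above callus and every low medium array below it.

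AT5G26330, the other plastocyanin-like gene, read 40.7 in callus, then 203.2 at day 2, 60.2 at day 5 and 33.6 at day 9 of high medium. Its low medium values, 15.8 at day 5 and 10.4 at day 9, were both below the floor. This was the sharpest peak of the 5, with the day 2 value 3.38 times the next highest. Only in this gene did day 9 of high medium lie below callus.

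The receptor-like kinase gene AT1G79620 read 28.2 in callus, then 154.7 at day 2, 59.1 at day 5 and 39.5 at day 9 of high medium. Its low medium values of 19.9 (day 5) and 10.4 (day 9) were again below the floor. AT4G27435, the DUF1218 gene, read 83.1 in callus, then 150.7 at day 2, 115.8 at day 5 and 88.4 at day 9 of high medium. Low medium gave 45.1 at day 5 and 36.0 at day 9, above the floor but below callus. Its peak was the flattest of the 5, the day 2 value being 1.30 times that of day 5.

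**Figure D1:**
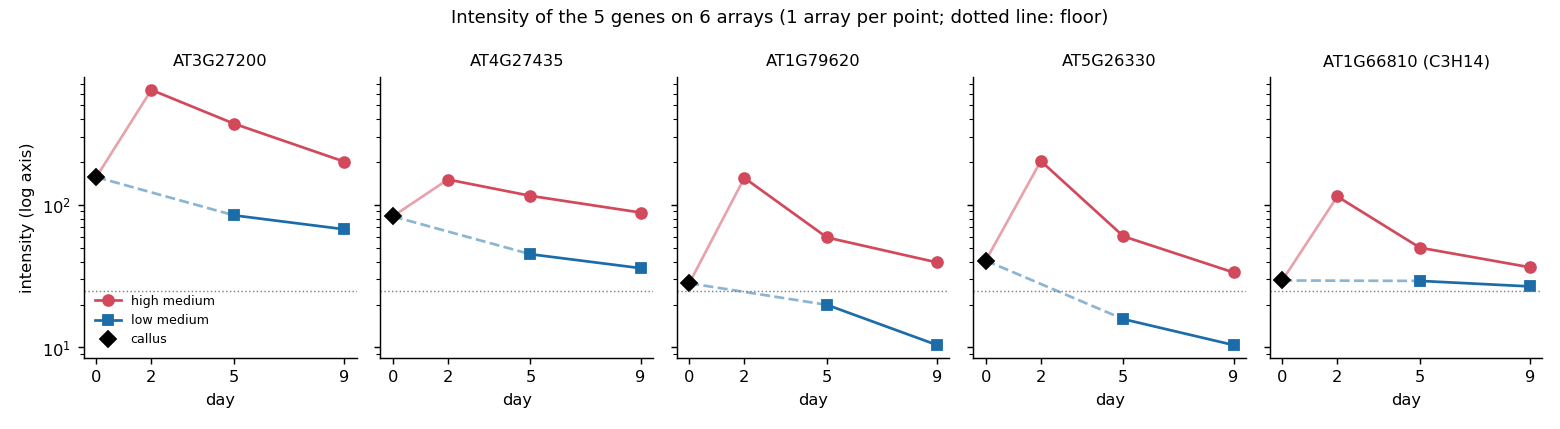
Intensity (log axis) of the 5 genes against day, with 1 array per point. Circles are high medium, squares low medium, the diamond callus, and the dotted line the floor of 24.7. Each gene is highest at day 2 in high medium, and low medium lies below high medium on days 5 and 9.

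By the deposited values, the order of the arrays was nearly shared. In 4 of the 5 genes it ran, from highest to lowest, high medium at days 2, 5 and 9, callus, then low medium at days 5 and 9. AT5G26330 differed only in having callus above high medium at day 9. Of all 13355 genes, 23 (0.172%) had the same strict order in the deposited values, the 4 included. Among the 7552 genes above the floor on at least 3 arrays, 21 (0.278%) had it. The last 2 places are not read for AT1G79620 and AT5G26330, whose low medium values are below the floor. Neighbours in this order were often close. C3H14 differed by 0.2 intensity units between callus and low medium at day 5, and AT4G27435 by 5.3 between high medium at day 9 and callus, gaps for which no replicate spread exists. The first of these changed sign with equal array medians.

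Across the first 2 days in high medium, all 5 genes were higher than in callus and 4 of them at least 2-fold. Of the 7753 genes with a ratio in that comparison, those that exceeded the floor on 1 or both arrays, 2.31% were at least 2-fold higher. AT1G79620 had the largest log2 ratio of the 5, 2.46, followed by AT5G26330 with 2.32, AT3G27200 with 2.03 and C3H14 with 1.96. These values ranked 24, 26, 38 and 40 from the top of the 7753 genes. AT4G27435, with 0.86, ranked 249 and did not reach 2-fold. With the floor raised to 65.1, the 60th percentile, C3H14 kept only a bound of at least 0.82. The median of the 5 was 2.03, against -0.03 for all genes with a ratio.

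From day 2 to day 5 all 5 genes were lower in high medium, and 3 of them at least 2-fold, where 0.871% of 7808 genes were at least 2-fold lower. AT5G26330 had a log2 ratio of -1.76, AT1G79620 of -1.39 and C3H14 of -1.19. With the floor at 65.1 the ratio of C3H14 was a bound of -0.82 or lower, and 2 genes reached 2-fold. AT3G27200 and AT4G27435 had -0.79 and -0.38 and kept more of the day 2 level. On the log2 scale, 61.3% of the day 2 excess over callus was left at day 5 in AT3G27200 and 55.7% in AT4G27435, against 43.5% in AT1G79620, 39.0% in C3H14 and 24.3% in AT5G26330. Between days 5 and 9 all 5 were lower again, with log2 ratios from -0.88 for AT3G27200 to -0.39 for AT4G27435. None of these reached 2-fold, where 0.653% of 7814 genes were at least 2-fold lower.

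High medium was above low medium in all 5 genes at day 5, and 4 of the 5 reached 2-fold, where 0.911% of 7907 genes were at least 2-fold higher. AT3G27200 had a log2 ratio of 2.14, rank 4 from the top of those genes, and AT4G27435 one of 1.36, rank 31. For AT5G26330 and AT1G79620 the log2 ratios were at least 1.29 and at least 1.26, bounds set by the floor in low medium. C3H14 did not reach 2-fold, at 0.77, rank 144. With the floor at 65.1, AT4G27435 had only a bound of at least 0.83. The median of the 5 was 1.29, against -0.03 for all genes with a ratio. The scan background was 78.05 on the high and 105.48 on the low medium array of day 5, and its part in these ratios was not tested.

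At day 9, where the scan background was 74.33 in high and 82.04 in low medium, all 5 were again higher in high medium, and 2 of them at least 2-fold. Of 7689 genes, 0.26% were at least 2-fold higher. Ranked by floored ratios, bounds included, AT3G27200, at a log2 ratio of 1.58, was number 1 among them. AT4G27435, at 1.30, had rank 11. AT1G79620 and AT5G26330 had bounds of at least 0.68 and at least 0.44, and C3H14 had 0.45. The ratio of AT4G27435 was thus close to its day 5 value, while those of AT3G27200 and C3H14 were smaller at day 9. Whether the bounded ratios of AT1G79620 and AT5G26330 grew or shrank cannot be read, because both low medium values lie below the floor. With a floor of 7.70, the 20th percentile, they were 1.93 and 1.69 at day 9, past 2-fold and above the 1.58 of AT3G27200. At 65.1 AT4G27435 had a bound of at least 0.44.

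Against callus, 2 of the 5 genes reached 2-fold at day 5 in high medium, as did 2.67% of 7941 genes: AT3G27200, with a log2 ratio of 1.24, and AT1G79620, with 1.07. C3H14, AT5G26330 and AT4G27435 had 0.76, 0.56 and 0.48, below the 95th percentile of all genes with a ratio, 0.80. At day 9 in high medium 0 of the 5 reached 2-fold in either direction, where 2.11% of 7838 genes were higher and 2.21% lower by that much, and their log2 ratios over callus ran from -0.28 to 0.49.

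In low medium all 5 deposited values were below callus on both days. At day 5 none reached 2-fold, where 3.08% of 8010 genes were at least 2-fold lower. At day 9 AT3G27200 and AT4G27435 did, with log2 ratios of -1.22 and -1.21, where 2.04% of 7785 genes were at least 2-fold lower. For AT5G26330 and AT1G79620 the log2 ratios to callus were bounds of -0.72 or lower and -0.19 or lower on both days. C3H14 had log2 ratios of -0.0098 and -0.14, so it lay at about the callus level in low medium, and with equal array medians its day 5 ratio was 0.04. From day 5 to day 9 in low medium, the 3 genes with a ratio had log2 values of -0.13 to -0.33 and none reached 2-fold, where 0.611% of 7860 genes were at least 2-fold lower. These comparisons share the callus array with those of high medium, so the 2 sets of values are not separate.

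**Figure D2:**
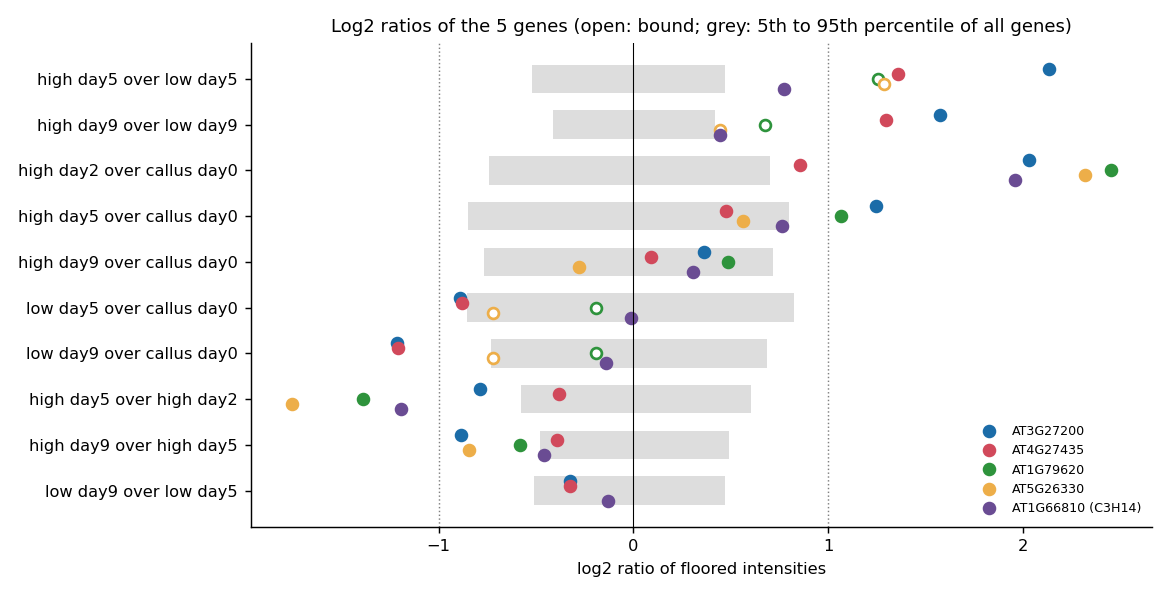
Log2 ratios of floored intensities (x axis) for the 5 genes in 10 comparisons of 2 arrays each, with the first array named over the second. Open circles are bounds set by the floor, grey bars span the 5th to 95th percentile of all genes with a ratio, and dotted lines mark 2-fold. In high over low medium all 5 genes lie right of the grey bar on days 5 and 9. After the floor, AT3G27200 and AT4G27435 pass 2-fold on both days. The day 9 ratios of AT1G79620 and AT5G26330 are bounds, so whether they pass cannot be read.

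The first 2 days in high medium and the difference between media at day 5 rest on 4 different arrays. All of them were known when the genes were chosen, so passing in both is a description. Of 7388 genes with a ratio in both comparisons, 21 (0.284%) were at least 2-fold higher in each, and 3 of these were AT3G27200, AT1G79620 and AT5G26330. For AT1G79620 and AT5G26330 the day 5 ratio is a bound set by the floor. Among the 7388 genes, 178 were higher at day 2 and 70 in high medium at day 5. The 21 made up 11.8% of the 178 and 30.0% of the 70. With day 9 in place of day 5, 5 of 7361 genes (0.0679%) passed in both, and AT3G27200 was 1 of them. The day 9 ratios of AT1G79620 and AT5G26330 are bounds, so whether these genes pass cannot be read.

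The 5 genes correlated over the 6 arrays with Pearson's r from 0.817 to 0.995 and Spearman's rho from 0.928 to 1.00 in the 10 pairs. All points share the same 6 arrays, and the genes were chosen with these values known. The closest pair was AT1G79620 and C3H14 (r = 0.995), and the most distant AT4G27435 and C3H14 (r = 0.817). AT3G27200 and AT4G27435, the 2 genes past 2-fold between media on both days, had r = 0.976. AT1G79620, AT5G26330 and C3H14, in which day 2 stood highest above the next array, had r from 0.972 to 0.995 among themselves.

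Other genes were ranked by Pearson's r, over the 6 arrays, to the mean centred log2 profile of the 5. Eligible were 1036 genes above the floor on at least 3 arrays and with a log2 range of at least 1. Of these, 11 (1.06%) had r of at least 0.95, and the median r was -0.08. The 10 highest were AT5G60720, AT2G44370, AT1G79420, AT4G23720, AT1G65900, AT1G47410, AT1G23460, AT5G64180, AT5G66440 and AT1G67050, with r from 0.980 to 0.955. After the floor, their log2 ranges ran from 1.02 to 1.82, all narrower than those of the 5 (2.07 to 3.25). Ranges of genes with an array below the floor are bounds. Among these is AT2G44370, with 78.9 at day 2 of high medium and 14.9 at day 9 of low medium.

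AT5G60720, the only one of these 10 on the lists of wall genes described below, read 31.9 in callus, then 62.8 at day 2, 43.5 at day 5 and 33.9 at day 9 of high medium, with 31.2 and 22.1 in low medium. AT4G23720 read 38.8 in callus, then 82.0, 64.6 and 38.2 on those days of high medium, with 26.7 and 26.3 in low medium. AT1G23460 read 87.9 in callus, then 222.2, 139.1 and 84.7, with 85.5 and 70.8 in low medium. In each of these 3 genes day 2 was highest, and in AT5G60720 and AT1G23460 low medium at day 5 was close to callus.

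For single genes, AT3G27200 was most like AT1G67050 (r = 0.994) and AT4G27435 most like AT3G54040 (r = 0.987). AT1G79620 was most like AT1G65900 (r = 0.992), and C3H14 and AT5G26330 were both most like AT5G64180 (r = 0.988 and 0.975). Among probe sets unnamed here, 20 of 987 eligible ones (2.03%) had r of at least 0.95.

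**Figure D3:**
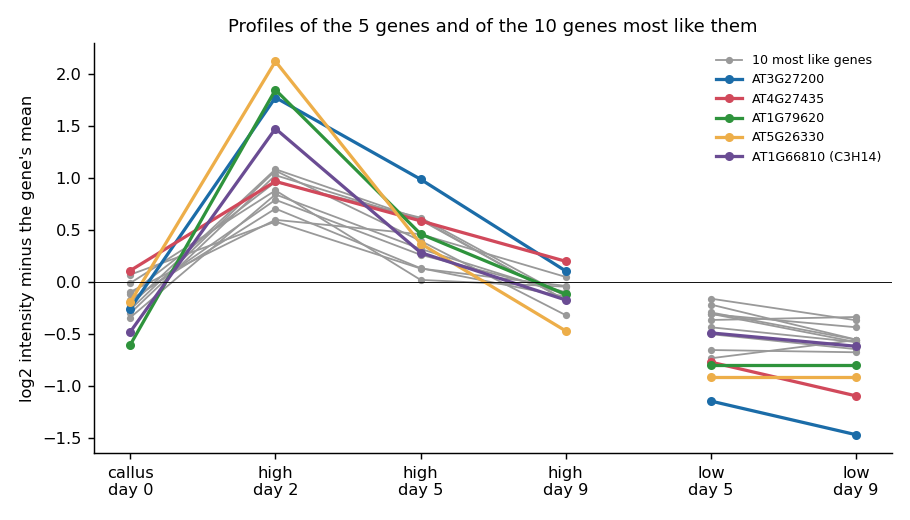
Log2 intensity minus each gene's mean (y axis) on the 6 arrays, in colour for the 5 genes and in grey for the 10 genes most like their mean. The grey lines share the day 2 maximum and lie below 0 in low medium, with a smaller range than the 5 after the floor.

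Lists of other secondary wall genes held 142 loci. Of these, 35 could be measured, and 10 of the 35 lay at the floor on every array. None of the 5 loci on the cellulose list, which includes the secondary wall cellulose synthases, has a probe set that could be named here. Of 43 regulators only PHV has. Whether the 8730 probe sets unnamed here include the others cannot be read. In high medium at day 2, 3 of the 24 listed genes with a ratio were at least 2-fold higher than in callus and 1 was lower. Of all genes with a ratio, 2.31% were at least 2-fold higher and 2.23% lower. The median log2 ratio of the 24 was 0.54, with 19 of 24 above 0.

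Between media at day 5, high medium exceeded low medium by 2-fold or more in 4 of 20 and lay below it by that much in 0. Of all genes with a ratio, 0.911% were that much higher and 0.443% that much lower. The median of the 20 was 0.24, with 17 of 20 above 0. At day 9, 2 of 19 were higher and 0 lower, where 0.26% of all genes with a ratio were higher and 0.195% lower. The median of the 19 was 0.36, with 16 of 19 above 0. All-gene medians were -0.03 in the first 2 of these comparisons and -0.00375 at day 9. Counting genes at the floor on both arrays as 0, the medians of the 35 were 0.10 at day 2 and 0.00 between media on both days.

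Among the 4 measured xylan genes, IRX10 (GUT2 in the annotation), which encodes a xylosyltransferase of the xylan backbone, came nearest to the mean profile of the 5 (r = 0.933). It read 95.2 in callus, then 139.7 at day 2, 94.0 at day 5 and 89.9 at day 9 of high medium, with 80.6 and 64.4 in low medium. None of its ratios reached 2-fold. IRX15 and IRX15-L, both needed for normal xylan, had log2 ratios of 0.34 and 0.77 at day 2 over callus, and IRX10L (GUT1), the close homolog of IRX10, one of 0.10.

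Of the 4 measured lignin genes, the peroxidase gene AT5G51890 had the largest difference between media. It read 145.3 in callus, then 199.2 at day 2, 100.8 at day 5 and 69.7 at day 9 of high medium, with 27.8 and 25.8 in low medium. Its log2 ratios between media were 1.86 and 1.43, but that over callus at day 2 was only 0.46. PRX52, another peroxidase gene, had 67.2 at day 5 of high medium, against 29.6 at day 5 of low medium, yet lay below the floor in callus and at day 2. HCT, which makes an early intermediate of lignin monomers, read 254.1 at day 2 and 670.0 in callus, a log2 ratio of -1.40. AT5G66390 was at the floor on every array. SCPL48, a serine carboxypeptidase-like gene and the only measured one of 7 on the xylem cell death list, had 620.8 and 582.0 at days 5 and 9 of high medium, against 984.2 and 771.1 on those days of low medium.

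Of the 25 measured genes listed for co-expression with wall formation, 16 had a ratio at day 2 over callus. At least 2-fold higher at day 2 were 3 of them, where 2.31% of all genes with a ratio were. AT1G58070 read 110.4 at day 2 and 44.9 in callus, and AT5G38610 read 66.5 and 27.1. AT1G72230, a plastocyanin-like gene, read 57.4 at day 2, and 12.3, below the floor, in callus. None of the 3 passed the 2-fold rule between media at day 5 or 9, and AT1G72230 was below the floor on all 4 of those arrays. AT2G03200 and AT1G70500 were at least 2-fold higher in high than in low medium at day 5, with 53.8 against 21.2 and 49.7 against 9.4, both low medium values below the floor. AT5G40020, a thaumatin-like gene, passed 2-fold at day 9, with 139.7 in high and 56.9 in low medium. PHV, a homeodomain gene active in vascular patterning, read 298.6 at day 2 and 360.3 in callus.

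**Figure D4:**
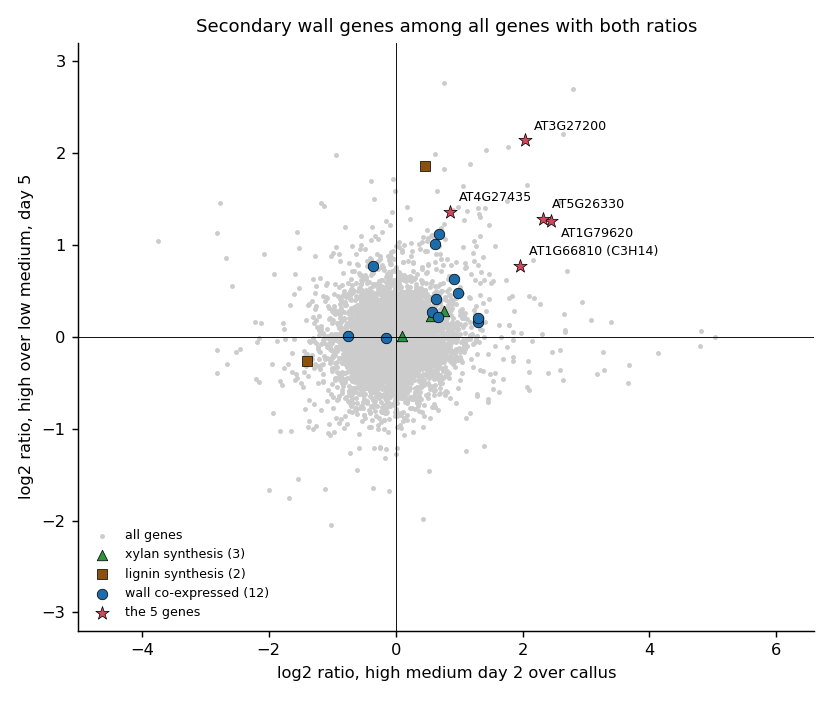
Log2 ratio of high medium at day 2 over callus (x axis) against log2 ratio of high over low medium at day 5 (y axis) for 7388 genes with both ratios. Stars are the 5 genes, triangles, squares and circles 3, 2 and 12 genes of the wall lists, and grey points all genes. The 5 genes lie in the upper right, and 3 of them reach 2-fold on both axes. Of the listed wall genes 0 do, where 0.284% of the 7388 genes do, so 0 is near the background.

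Relatives from the same protein families were measured beside the 5, and some of them are also on the wall lists. Of all genes with a ratio, 1.35% were at least 2-fold higher or lower between media at day 5, 0.455% at day 9 and 4.54% between day 2 and callus, so few or no calls in lists this short are near the background. Among 10 measured DUF1218 genes other than AT4G27435, 9 had a ratio and 0 were 2-fold different in these comparisons. AT1G13380 read 619.1 in callus, then 856.2, 1002.2 and 965.0 at days 2, 5 and 9 of high medium, with 937.1 and 960.8 in low medium, so the media were close. Of 7 kinases of the subfamily of AT1G79620, 4 lay at the floor on every array, and 0 of the other 3 were 2-fold different. Of 5 other measured plastocyanin-like genes, 0 of the 2 with a ratio reached 2-fold between media, and 1 of the 3 with a ratio, AT1G72230, was 2-fold higher at day 2 than in callus. ARPN, a secreted plantacyanin, had 254.8 and 321.2 at days 5 and 9 of high medium, against 155.5 and 219.6 on those days of low medium, with 124.7 at day 2 and 103.1 in callus. AT5G12850, the only measured gene of 12 in the tandem CCCH family besides C3H14, read 158.7 at day 2 and 182.7 in callus.

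Markers of other cell types were sparse. OPS, the only measured gene of 8 phloem markers, read 40.4 in callus, then 66.0 at day 2, 56.0 at day 5 and 43.3 at day 9 of high medium, with 21.6 and 42.6 in low medium. It was thus highest at day 2, as were the 5 genes. Its log2 ratio of high over low medium was at least 1.18 at day 5, past 2-fold as in 4 of the 5 genes, and 0.02 at day 9. ACR4, the only measured gene of 4 epidermis markers, lay below the floor on all 6 arrays. LHCB4.1, the only one of 7 green leaf cell markers, read 51.0, 50.2 and 65.2 at days 2, 5 and 9 of high medium and 57.2 and 30.9 in low medium, with 50.0 in callus, so it was 2-fold higher in high medium at day 9 alone. The part of these markers in the values of the 5 genes was not tested. In such bulk samples, fewer cells that express a gene and less RNA of it per cell cannot be told apart.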

How the data were processed

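RNA of 6 samples was read on ATH1 arrays, grouped by source name and treatment text, since the growth field gives the high medium for all. The authors deposited 1 intensity, on a linear scale, for each of 22810 probe sets per array; the summarising software and its version are not given in the sources used here. Leaving out 64 controls, array means trimmed by 2% per end were 99.2 to 99.4, so no scaling was added. Control probe sets for spiked-in transcripts had a median ratio to callus of 1.34 at day 2 and 1.70 at day 5 of high medium. On the other liquid culture arrays it was 1.08 to 1.16. The part of this difference in the values of the 5 genes was not tested. Values under 24.7 (the 40th percentile, as a median of the 6 arrays) were raised to that floor before log2. If 1 of the 2 arrays lay at the floor, the ratio is a bound, and it was ranked at its floored value. If both did, none is given. The annotation gives 1 gene for 13513 probe sets, several for 503 and none for 8730 (unnamed here); 13436 were matched by gene identifier to RefSeq (TAIR10.1), used for names only. Each gene was read from its probe set with the highest mean.

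A 2-fold rule of size replaced a test. Named were the 5 genes, the listed genes past 2-fold or in lists with 8 or fewer measured genes, and the 10 most alike (for each of the 5, the closest 3) by Pearson's r; AT1G13380 was picked after its values were seen. The members and lists were chosen with earlier results of these data known. Python 3.11.15, numpy 2.4.6 and pandas 2.3.3 were used. Other floors, scalings, probe set choices and thresholds were tried. The number of arrays limits the precision. The planned promoter search was not run, and no sequence is shown.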

Additional observations from a re-analysis of the deposited data

Results flagged for a closer look

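Each of the 5 genes lay above callus in high medium and below it in low medium at day 5, and 4 of them did so at day 9, although C3H14 in low medium was near the callus level on day 5 and above it, by a log2 ratio of 0.04, with equal array medians. The difference was not tested, since each medium has 1 array per day and both ratios share the callus array. The share of all genes with this pattern is not given here, so how unusual these counts are cannot be read. At day 5 the log2 ratios over callus in high and low medium were 1.24 and -0.89 for AT3G27200 and 0.48 and -0.88 for AT4G27435. They were 1.07 and at most -0.19 for AT1G79620, 0.56 and at most -0.72 for AT5G26330, and 0.76 and -0.0098 for C3H14. At day 9 they were 0.36 and -1.22 for AT3G27200, 0.089 and -1.21 for AT4G27435, 0.49 and at most -0.19 for AT1G79620, and 0.31 and -0.14 for C3H14.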

How the results depend on the processing

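The counts of the 5 genes past 2-fold depended mostly on the floor and the threshold. With the floor at the 60th percentile (65.1), the count was 1 between media on each day, 1 for high medium over callus at day 5 and 1 for low medium over callus at day 9. In each of these comparisons 3 of the 5 genes then had no ratio, since both arrays lay at that floor. With the floor at the 20th percentile (7.70) it was 4 between media at day 9, and, for low medium against callus, 1 on day 5 and 4 on day 9, since AT1G79620 and AT5G26330 then kept their low values. With 3-fold in place of 2-fold it was 1 between media at day 5, 0 at day 9, 0 at day 5 in high medium over callus, 0 at day 9 in low medium over callus and 1 from day 2 to day 5. With 1.5-fold it was 3 at day 5 in low medium over callus and 2 from day 5 to day 9 in high medium. Of all genes with a ratio, 0.215% passed 3-fold upward between media at day 5 and 0 did at day 9. For high medium over callus at day 5, 0.856% passed 3-fold upward. Downward, 0.501% passed 3-fold for low medium over callus at day 9 and 0.141% from day 2 to day 5. At 1.5-fold, 11.8% passed downward from callus to low medium at day 5 and 3.15% from day 5 to day 9 in high medium. Shares of all genes at the other floors are not given here. All other counts stayed within 1.5 times of those reported, under every alternative run. Of the 48 single ratios, all 48 kept their side of 2-fold under equal array medians and under quantile normalization. With the lower floor 5 more passed 2-fold, and with the higher floor 5 of the 25 that still had a ratio no longer did, among them C3H14 from day 2 to day 5 (-0.82) and at day 2 over callus (0.82), and AT4G27435 between media (0.83 and 0.44) and for low medium over callus at day 9 (-0.35). None of the ratios past 2-fold changed sign. The ratio of C3H14 for low medium over callus at day 5 did, with 0.04 under equal array medians against -0.0098. Averaging all probe sets of a gene changed nothing, because each gene has 1. By Spearman's rho, 8 of the 10 most alike genes stayed among the 20 eligible genes with the highest values. The planned promoter search was not run, since no sequences were used here. No paired test was run. Each condition has 1 array, and the labels give no replicate numbers. The media share days 5 and 9, and their ratios are given within each day. These ratios carry no test, since the genes were chosen with their values known. Precision is limited by the number of arrays, and for AT1G79620 and AT5G26330 by low medium signals below the floor.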
